A study of Mus musculus with 6 samples.

Results

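Transcripts of primitive red blood cells were examined in the mandibular arch of mouse embryos, as a gauge of how much blood each dissected sample carried. The 9 genes were taken by name: the embryonic globins Hbb-bh1, Hbb-y and Hba-x, the haem enzyme Alas2, the membrane protein Slc4a1, the carbonic anhydrase Car2 and the transcription factors Klf1, Gata1 and Nfe2. All 9 had at least 1 probe set annotated to a single gene, 15 probe sets in all, out of 18193 genes and 34945 such probe sets on an Affymetrix whole-genome mouse array.

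The arrays fell into 2 groups of C57BL/6 embryos at E10.5, a stage at which the mandibular arch is the primordium of the lower jaw. 3 arrays were labelled Tbx1-/-, homozygous for loss of a T-box transcription factor required in the pharyngeal region, and 3 were labelled Tbx1+/+, their wild-type counterparts. Each pool combined arches from 3 embryos of one genotype. The labels do not say whether every array had its own pool, and the p-values cover no more than the scatter among the 6 hybridised samples. The allele is not described further in the sources used here.

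Primitive erythroid cells arise in the blood islands of the yolk sac and circulate as nucleated cells through the embryo, so any vascularised tissue taken at this stage carries their RNA. They carry haemoglobins built from zeta-like and beta-like embryonic chains, together with adult alpha chains. Adult beta-globin is the main beta chain of definitive red cells of the fetal liver, of later life and of the mother. GATA1 and KLF1, which bind GATA and CACCC sequences, switch on the globin, haem and membrane genes of the lineage, and NFE2 acts at the locus control region of the beta-globin cluster. Values below are log2 expression per probe set, and in a dissected tissue fewer red cells and less RNA per red cell cannot be told apart.

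Tbx1, read by 1 probe set, stood at 7.59, 7.50 and 7.30 on the arrays labelled Tbx1-/- and at 6.93, 7.31 and 6.92 on the arrays labelled Tbx1+/+, so that the transcript was not lower under the null label. The disrupted part of the gene is not given, and this probe set therefore checks nothing about the labels. Of the arch mesenchyme markers, Prrx1 read 13.03 to 13.08 on the arrays labelled Tbx1-/- and 12.98 to 13.16 on those labelled Tbx1+/+. Alx4 was the dimmest of the 10 markers, at 5.06 to 5.33 on the arrays labelled Tbx1-/- and 4.68 to 4.98 on those labelled Tbx1+/+. It was the 1 marker whose groups did not overlap, and 3.17% of all genes were separated in that direction. Dlx1 and Dlx5 each differed by -0.20 (Tbx1-/- minus Tbx1+/+). Of the 10 markers, 6 had lower and 4 higher means on the arrays labelled Tbx1-/-, with a median difference of -0.03. Replicate 3 labelled Tbx1-/- stood apart, with 249 genes more than 1 log2 unit above the mean of the other arrays, against 6 to 32 on each other array, and it carried placental transcripts (values below). Differences on a gene's brightest probe set that it moves by more than 1.5 times are given without it too.

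Promoters are shown for 3 of the genes, both globins available and the haem enzyme, because they hold the sequences that KLF1 and GATA1, themselves among the 9, are known to bind. The sequences come from RefSeq (GRCm38.p6), which listed promoters for 5 of the 9 genes here, and each line gives the 200 bases before the annotated start, 5′ to 3′. Capitals mark 4 motifs, each searched on both strands. The box bound by KLF1 and related factors was searched as CACCC. The motif bound by GATA factors was searched as GATAA. A general promoter box found before many vertebrate genes was searched as CCAAT. The form of the TATA box typical of globin genes was searched as ATAAA. Adjoining or overlapping matches run together.

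Hbb-y (chr7:103853208-103853407, minus strand): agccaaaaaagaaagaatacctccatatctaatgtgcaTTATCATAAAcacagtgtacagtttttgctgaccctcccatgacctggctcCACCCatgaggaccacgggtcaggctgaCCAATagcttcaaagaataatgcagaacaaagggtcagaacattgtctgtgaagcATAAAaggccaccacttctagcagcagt

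Hba-x (chr11:32276400-32276599, plus strand): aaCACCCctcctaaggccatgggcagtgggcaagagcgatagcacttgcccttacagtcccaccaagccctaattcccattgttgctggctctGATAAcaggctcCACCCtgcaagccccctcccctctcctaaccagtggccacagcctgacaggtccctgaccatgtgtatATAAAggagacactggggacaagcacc

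Alas2 (chrX:150547217-150547416, plus strand): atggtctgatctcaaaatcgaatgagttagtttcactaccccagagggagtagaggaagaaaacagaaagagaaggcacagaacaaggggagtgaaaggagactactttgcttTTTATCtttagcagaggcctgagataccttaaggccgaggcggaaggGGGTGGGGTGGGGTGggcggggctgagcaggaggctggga

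With positions counted backwards from the start, the CACCC of Hbb-y began at -111, its CCAAT box at -83 and its nearer ATAAA at -28. Hba-x had its nearer CACCC at -95, its GATAA motif at -107 and its ATAAA at -27. Alas2 held 3 CACCC matches on the opposite strand, at -40, -35 and -30, and a GATAA on that strand at -86 that overlapped an ATAAA match. CACCC was found in all 5 member promoters, against 45.5% of 32851 promoters of the same length, and GATAA in 4 of 5, against 18.1%. CCAAT was in 2 of 5 (29.3% of all) and ATAAA in 3 of 5 (30.8% of all). These matches describe letters in a window and were not tested for binding.

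None of the 9 erythroid genes passed the threshold of an adjusted p under 0.05, in a limma fit over 16073 genes with Benjamini-Hochberg adjustment, in which 6 genes passed (0.0373%), 4 of them lower (0.0249%) and 2 higher (0.0124%); with the replicate number as a block 6 were lower and 4 higher. All 9 nevertheless had lower means on the arrays labelled Tbx1-/-, by 0.07 to 0.35 on the log2 scale, where 52.7% of all genes tested had a lower and 47.3% a higher mean. Their median difference was -0.16, beside -0.01 for all genes. At an unadjusted p under 0.05, 2 of the 9 were lower, Car2 and Nfe2 (1.2% of all genes were lower by that rule), and the same 2 were the ones whose 3 arrays labelled Tbx1-/- all lay below the arrays labelled Tbx1+/+. Of all genes, 3.25% were separated in that direction, 3.17% in the other and 6.43% in either. Without replicate 3 labelled Tbx1-/-, 8 of 9 had lower means (53.4% of all genes) and the median difference was -0.18. The 9 values come from the same 6 arrays and are not independent of one another.

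**Figure D1:**
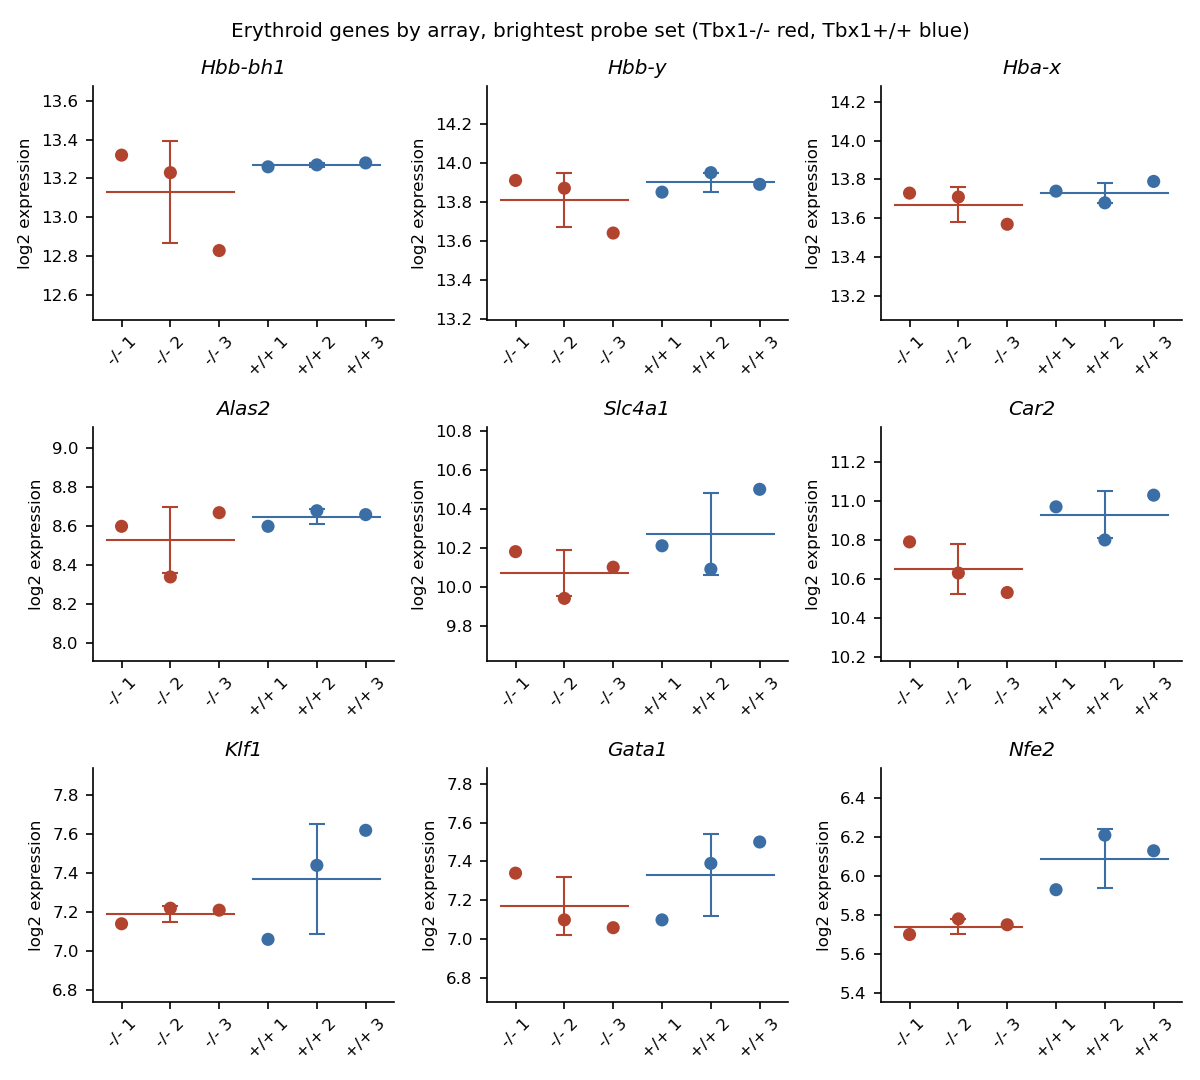
Log2 expression of the brightest probe set of each of the 9 erythroid genes (vertical axis) on the 3 arrays labelled Tbx1-/- (red, left) and the 3 labelled Tbx1+/+ (blue, right); lines are group means, bars are SD (n = 3), and each panel spans the same log2 distance. The 3 embryonic globins are lowest on replicate 3 labelled Tbx1-/-, and the 2 groups separate for Car2 and Nfe2.

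The embryonic globins read between 12.54 and 13.95 on every array and probe set, in a table whose highest value was 15.11. Hbb-bh1, the beta-like chain prominent in young primitive cells, read 13.32, 13.23 and 12.83 on the arrays labelled Tbx1-/- and 13.26, 13.27 and 13.28 on those labelled Tbx1+/+. A single array, replicate 3 labelled Tbx1-/-, was low, and the other 5 lay within 0.1 of one another. The difference was -0.14 (SE 0.11, 95% interval -0.40 to 0.12, adjusted p = 1.00 in limma), and without that array it was 0.01. The other probe sets of Hbb-bh1 were likewise lowest on replicate 3 labelled Tbx1-/-, at 12.71 and 12.54, and differed by -0.15 (SE 0.14) and -0.10 (SE 0.17) between the groups.

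Hbb-y, the epsilon-like chain that gains on Hbb-bh1 as primitive cells mature, read 13.91, 13.87 and 13.64 on the arrays labelled Tbx1-/- and 13.85, 13.95 and 13.89 on those labelled Tbx1+/+. The groups overlapped except for the same low array. The difference was -0.09 (SE 0.07, 95% interval -0.26 to 0.08, adjusted p = 1.00 in limma) and -0.01 without replicate 3 labelled Tbx1-/-, and it was -0.06 and -0.07 (SE 0.07 each) on the other probe sets of Hbb-y.

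Hba-x, the zeta chain of embryonic haemoglobin, read 13.73, 13.71 and 13.57 on the arrays labelled Tbx1-/- and 13.74, 13.68 and 13.79 on those labelled Tbx1+/+. It had the narrowest span of the 9 genes, 0.22 over all 6 arrays, and again the lowest value lay on replicate 3 labelled Tbx1-/-. The difference of -0.07 (SE 0.06, 95% interval -0.20 to 0.06, adjusted p = 1.00 in limma) corresponds to a ratio of Tbx1-/- to Tbx1+/+ between 0.87 and 1.05, and it was -0.02 without that array. The interval for Hbb-bh1 corresponds to a ratio between 0.76 and 1.09 and that for Hbb-y to one between 0.84 and 1.05. Whether brightness compresses differences among transcripts this bright was not tested.

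The balance between the beta-like embryonic chains was compared within arrays, where Hbb-y stood above Hbb-bh1 by 0.59, 0.64 and 0.81 on the arrays labelled Tbx1-/- and by 0.59, 0.68 and 0.61 on those labelled Tbx1+/+. The size of this gap includes probe effects that are the same on each array, so only its change between arrays can be read. The gap averaged 0.68 ± 0.12 on the arrays labelled Tbx1-/- and 0.63 ± 0.05 on those labelled Tbx1+/+ (SD, n = 3 each), and a two-sided exact permutation test gave p = 0.70, in a design that cannot go below 0.10. It differed by 0.05 with all arrays and by -0.01 without replicate 3 labelled Tbx1-/-, the array with the widest gap.

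Alas2, which encodes the erythroid form of the enzyme that begins haem synthesis, read 8.60, 8.34 and 8.67 on the arrays labelled Tbx1-/- and 8.60, 8.68 and 8.66 on those labelled Tbx1+/+. Replicate 2 labelled Tbx1-/- was low and the other 5 arrays lay close together. The difference was -0.11 (SE 0.11, 95% interval -0.37 to 0.14, adjusted p = 1.00 in limma), -0.18 without replicate 3 labelled Tbx1-/- and -0.02 without replicate 2 labelled Tbx1-/-. Alas2 lies on the X chromosome, and Xist, the transcript of the inactive X, was also low on replicate 2 labelled Tbx1-/-, reading 11.55, 5.60 and 10.60 on the arrays labelled Tbx1-/- and 10.44, 11.00 and 11.53 on those labelled Tbx1+/+. The part of embryo sex in the Alas2 value was not tested.

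Slc4a1, the chloride-bicarbonate exchanger that anchors the red cell skeleton, read 10.18, 9.94 and 10.10 on the arrays labelled Tbx1-/- and 10.21 and 10.09 on replicates 1 and 2 labelled Tbx1+/+. Replicate 3 labelled Tbx1+/+ was the highest, which put the group means at 10.07 ± 0.12 for Tbx1-/- and 10.27 ± 0.21 for Tbx1+/+ (SD, n = 3 each), and the groups overlapped. The difference was -0.19 (SE 0.12, 95% interval -0.47 to 0.08, adjusted p = 1.00 in limma), and -0.08 without replicate 3 labelled Tbx1+/+. A second bright probe set of Slc4a1 gave -0.22 (SE 0.13), with its lowest value of 9.78 on replicate 3 labelled Tbx1-/-, and a dim one that read between 4.43 and 4.85 on all arrays gave -0.13 (SE 0.14).

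Car2, the cytosolic carbonic anhydrase that supplies bicarbonate to that exchanger and is also made by many cells outside the blood, read 10.79, 10.63 and 10.53 on the arrays labelled Tbx1-/- and 10.97, 10.80 and 11.03 on those labelled Tbx1+/+. The groups did not overlap, but the highest Tbx1-/- value and the lowest Tbx1+/+ value differed only in the last decimal. Car2 was 1.21-fold lower on the arrays labelled Tbx1-/- (log2 -0.28, SE 0.10, 95% interval -0.50 to -0.06). This did not pass over all genes (unadjusted p = 0.0179, adjusted p = 1.00 in limma), and the difference was -0.22 without replicate 3 labelled Tbx1-/-.

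Among the transcription factors, Klf1 read 7.14, 7.22 and 7.21 on the arrays labelled Tbx1-/- and 7.06, 7.44 and 7.62 on those labelled Tbx1+/+. The lowest and the highest of the 6 values were both on arrays labelled Tbx1+/+. The difference was -0.18 (SE 0.15, 95% interval -0.52 to 0.16, adjusted p = 1.00 in limma), -0.34 without replicate 1 labelled Tbx1+/+ and -0.06 without replicate 3 labelled Tbx1+/+.

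Gata1, the zinc finger factor required for red cell maturation, read 7.34, 7.10 and 7.06 on the arrays labelled Tbx1-/- and 7.10, 7.39 and 7.50 on those labelled Tbx1+/+. Low and high values were found in both groups. The difference was -0.16 (SE 0.14, 95% interval -0.48 to 0.16, adjusted p = 1.00 in limma), with a range of -0.28 without replicate 1 labelled Tbx1+/+ to -0.08 without replicate 3 labelled Tbx1+/+. Gata1 is X-linked like Alas2. On the array with low Xist, replicate 2 labelled Tbx1-/-, Gata1 read 7.10. It read the same on replicate 1 labelled Tbx1+/+, where Xist read 10.44. Its lowest value, 7.06, was on replicate 3 labelled Tbx1-/-, where Xist read 10.60. The part of embryo sex in the Gata1 values was not tested.

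Nfe2, which encodes the p45 subunit of a factor shared by red cells and megakaryocytes, showed the largest difference of the 9. It read 5.70, 5.78 and 5.75 on the arrays labelled Tbx1-/- and 5.93, 6.21 and 6.13 on those labelled Tbx1+/+, with no overlap. Nfe2 averaged 5.74 ± 0.04 on the arrays labelled Tbx1-/- and 6.09 ± 0.15 on those labelled Tbx1+/+ (SD, n = 3 each), 1.27-fold lower under the null label (log2 -0.35, SE 0.12, 95% interval -0.62 to -0.08). It did not pass over all genes (unadjusted p = 0.0184, adjusted p = 1.00 in limma), and without replicate 3 labelled Tbx1-/- the difference was again -0.35. The values lie near the array medians of 6.08 to 6.15.

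**Figure D2:**
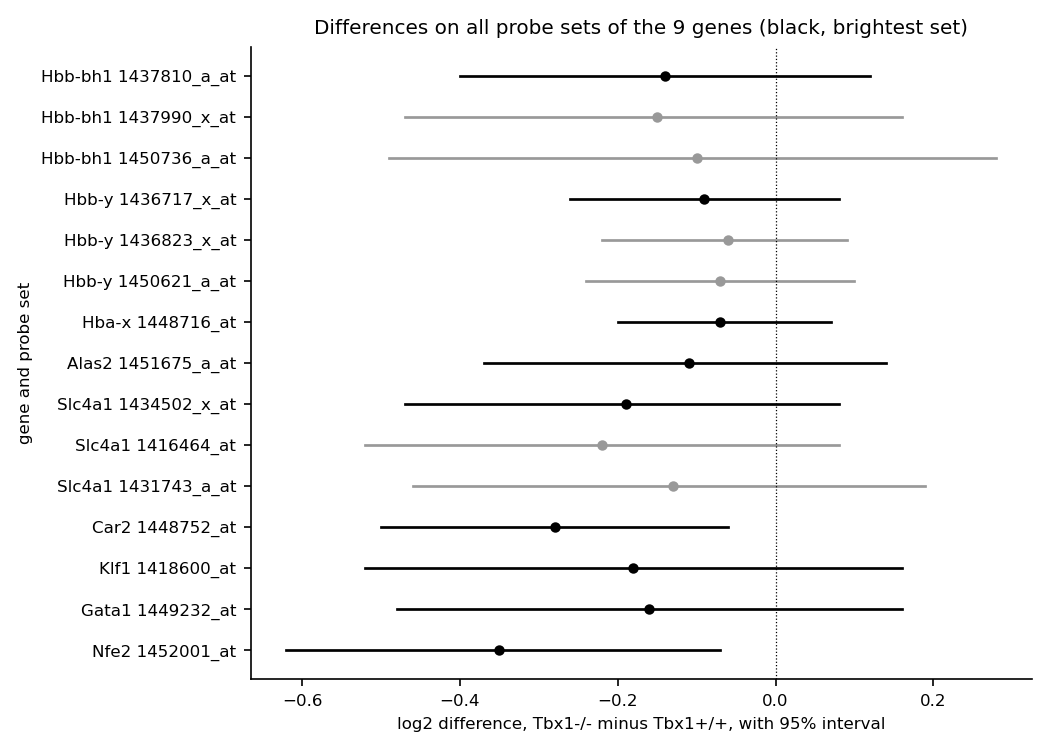
Log2 differences, Tbx1-/- minus Tbx1+/+ (horizontal axis), with 95% intervals from limma for the 15 probe sets of the 9 erythroid genes; black marks the brightest probe set of a gene and grey the others. All 15 points lie below 0, and the intervals of Car2 and Nfe2 alone do not reach it.

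Averaged over the 8 genes other than Car2, each as its deviation from its own mean, the erythroid level was 0.00, -0.10 and -0.14 on the arrays labelled Tbx1-/- and -0.03, 0.09 and 0.17 on those labelled Tbx1+/+. Of the 9 genes, 5 had their lowest value on replicate 3 labelled Tbx1-/- and 5 had their highest on replicate 3 labelled Tbx1+/+, so that these same-numbered arrays carried the ends of the range. Leaving out single arrays gave differences of the averaged level between -0.22 and -0.12.

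Among 670 tested genes with a span of at least 1 log2 unit, the 8 whose values over the 6 arrays were most like the averaged erythroid level were Vwc2 (Pearson r = 0.92), Dab1 (0.848), Tcf21 (0.824), Mrln (0.748), Dpyd (0.743), Fgf5 (0.742), Lrrn1 (0.73) and Synpo2l (0.723). That span left out all 9 genes themselves, the widest of which spanned 0.56, and all but 4 of the 54 other erythroid genes tested below (Hbb-b2, Cpox, Gata2 and Hemgn reached it), so nothing can be read from the absence of erythroid genes among the 8. Tcf21, a factor of the arch muscle lineage, read 5.76, 5.63 and 5.45 on the arrays labelled Tbx1-/- and 7.10, 7.01 and 7.33 on those labelled Tbx1+/+, and Lrrn1, a membrane protein, read 7.95, 7.90 and 7.90 against 9.59, 9.32 and 9.49. Vwc2 read between 3.23 and 4.33 on the arrays labelled Tbx1-/- and between 3.91 and 4.69 on those labelled Tbx1+/+, near the level of 4 used as the filter. All of the 8 except Vwc2 read lower on every array labelled Tbx1-/- than on any labelled Tbx1+/+ (3.25% of all genes were separated that way). A difference between the groups is enough to give a high r here. Within the arrays labelled Tbx1+/+, Lrrn1 was highest on replicate 1, where the erythroid level was lowest (-0.03). With 6 arrays such correlations are a description and carry no test.

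Other genes of the red cell programme were counted on lists drawn up by role, and 0 of 54 tested genes passed in limma in either direction (before adjustment, 4 were lower and 3 higher with p under 0.05, where 1.47% of all genes were higher and 1.2% lower). Of the 54, 37 had lower and 17 higher means, with a median of -0.06, and without replicate 3 labelled Tbx1-/- 39 had lower means. The medians of these lists lay between -0.15 and -0.03, except for 2 adult globins that differed by -0.04 and 0.72. The lowest, -0.15 for the membrane list, was close to the -0.16 of the 9 genes. Without replicate 3 labelled Tbx1-/- the median of the transcription factors was -0.10 and those of the haem, membrane and receptor lists were -0.05, -0.16 and -0.05, beside -0.18 for the 9 genes.

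Red cell membrane and skeleton genes had the lowest median of these lists, -0.15 over 13 tested genes, with 9 lower and 4 higher means and 5 whose groups did not overlap, all lower (3.25% of all genes were separated that way). Kel, which carries the Kell blood group, read 5.68, 5.63 and 5.52 on the arrays labelled Tbx1-/- and 5.91, 6.17 and 5.91 on those labelled Tbx1+/+, a difference of -0.39 (SE 0.12, unadjusted p = 0.0131, adjusted p = 1.00 in limma). Ermap, an erythroid membrane protein of the immunoglobulin superfamily, read 7.89, 7.91 and 7.79 on the arrays labelled Tbx1-/- and 8.11, 8.16 and 8.23 on those labelled Tbx1+/+, a difference of -0.30 (SE 0.10, unadjusted p = 0.0128, adjusted p = 1.00 in limma). Ank1, the ankyrin that ties Slc4a1 to spectrin, differed by -0.26 (SE 0.12), Rhd, a Rhesus protein, by -0.36 (SE 0.17; -0.18 without replicate 3 labelled Tbx1-/-) and Add2, an adducin, by -0.20 (SE 0.11), none past the threshold. With probe sets averaged, Ank1 differed by -0.18 and Add2 by -0.04. The values of Kel, Ank1 and Add2 lie near the array medians of 6.08 to 6.15, or below them. Aqp1, the red cell water channel, which endothelium also makes, differed by 0.32 (SE 0.14).

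Haem synthesis and mitochondrial iron genes had a median of -0.03 over 10 tested genes. Slc25a37, or mitoferrin, which brings iron into erythroid mitochondria, read 9.78, 9.75 and 9.64 on the arrays labelled Tbx1-/- and between 9.81 and 10.06 on those labelled Tbx1+/+, without overlap, and its difference of -0.23 (SE 0.09) did not pass. Separation in that direction was found for 3.25% of all genes. Receptors, iron uptake proteins and red cell enzymes had a median of -0.07 over 14 genes, with Hemgn, a nuclear protein of erythroid cells, at -0.38 (SE 0.23). The Hemgn difference was -0.18 without replicate 3 labelled Tbx1-/- and also -0.18 without replicate 1 labelled Tbx1+/+. Bpgm, which makes the effector that lowers the oxygen affinity of haemoglobin, differed by -0.12 (SE 0.10; -0.07 without replicate 3 labelled Tbx1-/-, -0.05 without replicate 1 labelled Tbx1+/+).

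Other erythroid and blood transcription factors had a median of -0.05 over 15 genes and went both ways. Tal1, the helix-loop-helix partner of GATA1, differed by -0.36 (SE 0.17; -0.22 without replicate 1 labelled Tbx1-/-) and Ikzf1 by -0.29 (SE 0.12). Gata2, which GATA1 displaces as red cells mature and which placenta and endothelium also express, differed by 0.50 (SE 0.20), reading 9.41, 9.34 and 10.15 on the arrays labelled Tbx1-/- and no more than 9.26 on those labelled Tbx1+/+. The highest value was on replicate 3 labelled Tbx1-/-, and without that array the difference was 0.24. The corepressor Cbfa2t3 differed by 0.27 (SE 0.11), or by 0.07 with its probe sets averaged. None of these genes passed.

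**Figure D3:**
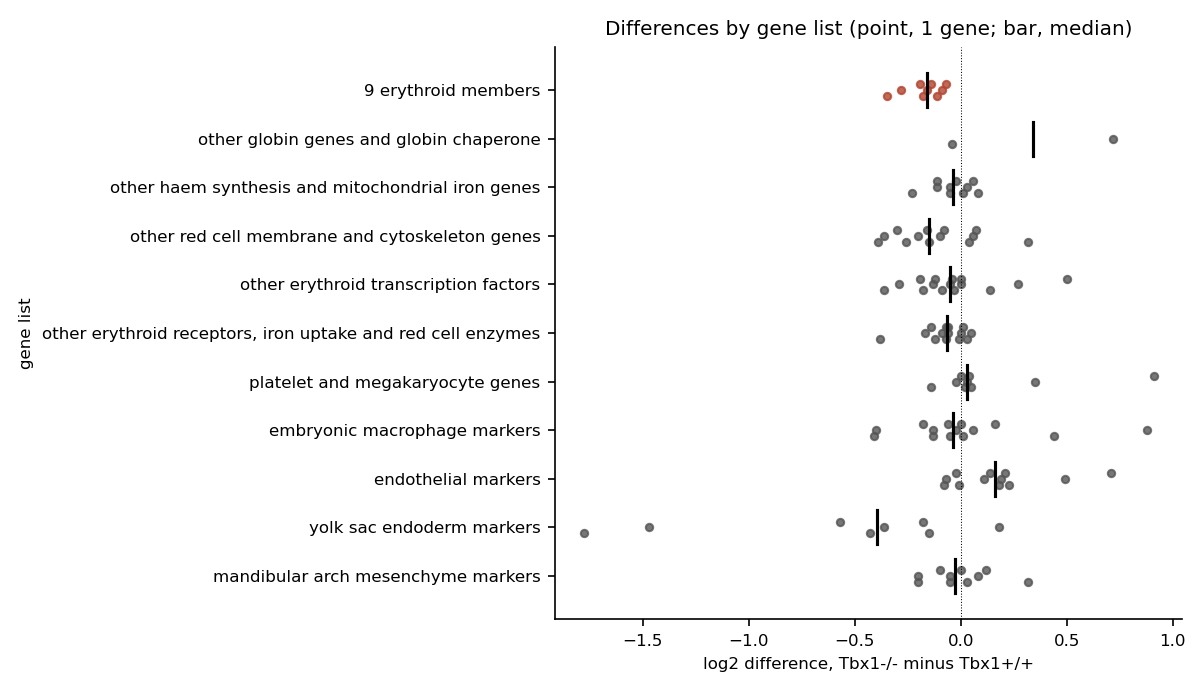
Log2 differences, Tbx1-/- minus Tbx1+/+ (horizontal axis), of the tested genes of each list (rows), 1 point per gene, with a bar at the list's median; placental and sex-linked lists are not drawn. The 9 erythroid genes (red) lie between -0.35 and -0.07, and the medians of the erythroid lists lie between -0.15 and -0.03 except for the 2 adult globin genes, whose median of 0.34 is the midpoint of -0.04 and 0.72.

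The adult beta and alpha chains were read by 1 tested gene each. Hbb-b2, an adult beta chain, read 10.44, 10.43 and 11.56 on the arrays labelled Tbx1-/- and 10.32, 10.01 and 9.94 on those labelled Tbx1+/+. The groups did not overlap (3.17% of all genes were separated in that direction). Hbb-b2 was highest on the array where the 3 embryonic globins were lowest. Its difference was 0.72 (SE 0.28, unadjusted p = 0.0329, adjusted p = 1.00 in limma) and 0.34 without replicate 3 labelled Tbx1-/-. Its dimmer probe set was also highest there, at 5.49, against 4.27 to 5.11 on the others. Hba-a2, an adult alpha chain that primitive cells also make, read 12.28, 12.33 and 12.02 on the arrays labelled Tbx1-/- and 12.53, 12.22 and 12.01 on those labelled Tbx1+/+, a difference of -0.04 (SE 0.14), which turned to 0.05 without replicate 3 labelled Tbx1-/-, 0.09 with array weights and 0.10 without replicate 1 labelled Tbx1+/+. Beta-globin genes are near-identical copies in part, and probe sets may read more than their named gene.

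The same array carried placental transcripts. Prl7a1, a prolactin-family hormone of trophoblast, read 4.03, 4.76 and 13.28 on the arrays labelled Tbx1-/- and 3.53, 3.73 and 3.87 on those labelled Tbx1+/+. Prl4a1 read 13.19 on replicate 3 labelled Tbx1-/- and 5.26 to 6.04 elsewhere, and Cyp11a1, a steroid-making enzyme, read 11.80 there and 4.50 to 4.74 elsewhere. Of 13 placental markers listed, 4 were tested, and Prl7a1 reached the filter level of 4 on the arrays labelled Tbx1-/- alone. Hand1, the last of the tested markers, read 9.63 on replicate 3 labelled Tbx1-/- and 8.35 to 8.81 elsewhere. Over the 4 tested placental markers the mean level was 5.82, 6.03 and 11.98 on the arrays labelled Tbx1-/- and 5.61, 5.58 and 5.69 on those labelled Tbx1+/+. The part of placental or maternal tissue in the globin values of that array was not tested.

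**Figure D4:**
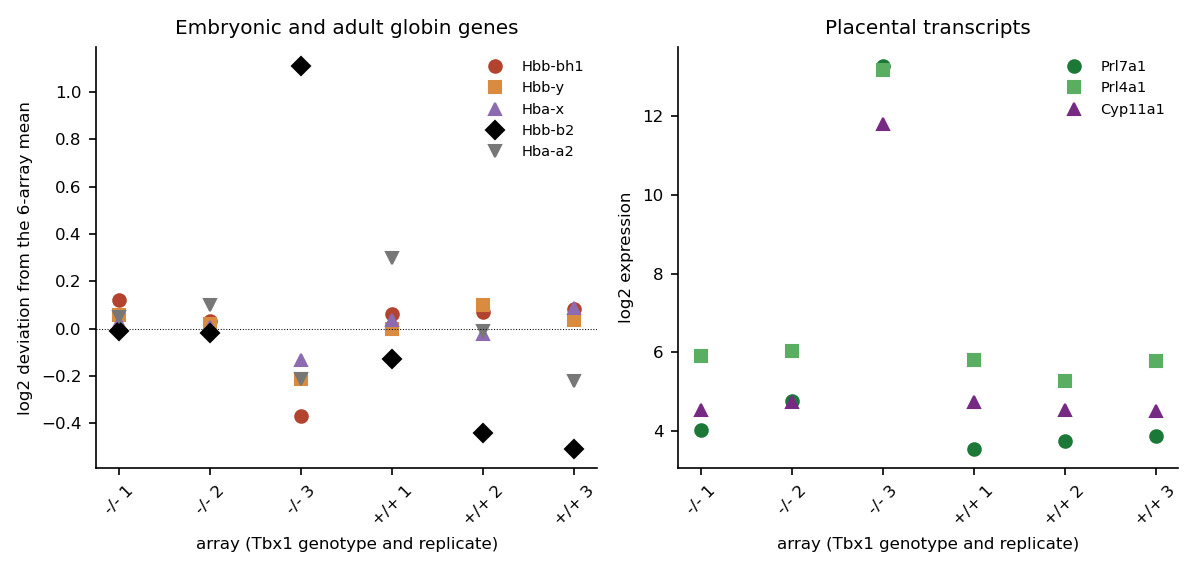
Left, log2 deviation of 5 globin genes from their mean over the 6 arrays; right, log2 expression of 3 placental transcripts, on the 3 arrays labelled Tbx1-/- (left of each panel) and the 3 labelled Tbx1+/+. On replicate 3 labelled Tbx1-/- the embryonic globins are at their lowest, Hbb-b2 is at its highest (11.56) and Prl7a1 reads 13.28.

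Markers of other cells that come with blood vessels were counted in the same way. Endothelial markers had 8 higher and 4 lower means and a median of 0.16 over 12 tested genes (0.09 without replicate 3 labelled Tbx1-/-), with mean levels of 8.25 to 8.39 on the arrays labelled Tbx1-/- and 8.12 to 8.20 on those labelled Tbx1+/+. Flt1, a receptor for vascular endothelial growth factor, differed by 0.71 (SE 0.25; 0.42 without replicate 1 labelled Tbx1-/-) and Egfl7 by 0.21 (SE 0.09), both without overlap and neither past the threshold. Separation in that direction was found for 3.17% of all genes. With probe sets averaged, Flt1 differed by 0.44 and Egfl7 by 0.08. Esam differed by 0.49 (SE 0.22) and Tie1 by 0.18 (SE 0.12), and without replicate 3 labelled Tbx1-/- by 0.24 and 0.11. Platelet and megakaryocyte genes had 2 lower and 7 higher means and a median of 0.03 over 9 tested genes, but 6 lower and 3 higher means and a median of -0.06 without replicate 3 labelled Tbx1-/-. They had mean levels of 6.11, 6.09 and 6.62 on the arrays labelled Tbx1-/- and 6.27, 6.15 and 5.99 on those labelled Tbx1+/+. Itgb3, an integrin of platelets and other cells, read 8.14 on replicate 3 labelled Tbx1-/- and 5.70 to 6.18 elsewhere.

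Macrophage markers had 9 lower and 5 higher means and a median of -0.04 over 14 genes, and without replicate 3 labelled Tbx1-/- 12 lower and 2 higher means and a median of -0.14. They had mean levels of 6.28, 6.35 and 6.95 on the arrays labelled Tbx1-/- and 6.53, 6.69 and 6.33 on those labelled Tbx1+/+. The complement gene C1qb differed by -0.41 (SE 0.15; -0.27 without replicate 2 labelled Tbx1+/+) and the scavenger receptor gene Mrc1 by -0.40 (SE 0.16; -0.26 without replicate 3 labelled Tbx1-/-), both without overlap and not past the threshold. Such separation, lower under the null label, was found for 3.25% of all genes. Csf1r, named after its values were seen and also expressed by trophoblast, read 11.77 on replicate 3 labelled Tbx1-/- and 6.30 to 7.94 elsewhere.

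Yolk sac endoderm markers had lower means for 7 of 8 tested genes and a median of -0.39. Ttr, a carrier of thyroid hormone and retinol, read 4.75, 6.10 and 5.98 on the arrays labelled Tbx1-/- and 6.42, 8.32 and 7.42 on those labelled Tbx1+/+, a difference of -1.78 (SE 0.49, adjusted p = 1.00 in limma; 0.0362 with the replicate block). Afp, the fetal albumin-like protein, differed by -1.47 (SE 0.47), Apoa4 by -0.36 (SE 0.13) and Rbp4 by -0.43 (SE 0.19; -0.20 without replicate 2 labelled Tbx1+/+), each without overlap. The list's mean level was 5.56, 6.06 and 5.91 on the arrays labelled Tbx1-/- and 6.08, 6.89 and 6.36 on those labelled Tbx1+/+; like the erythroid level, it was lower on average under the null label. The arrays at the ends of the range differed. The yolk sac list was lowest on replicate 1 labelled Tbx1-/- and highest on replicate 2 labelled Tbx1+/+. The erythroid level was lowest on replicate 3 labelled Tbx1-/- (-0.14) and highest on replicate 3 labelled Tbx1+/+ (0.17). The part of yolk sac tissue in the erythroid values was not tested.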

How the data were processed

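Expression was measured on 3 arrays labelled Tbx1-/- and 3 labelled Tbx1+/+, from 100 ng of total RNA each per the labels' protocols. The deposited table gives log2 expression for each probe set, made by the authors with GCRMA per the submitters' processing notes, with no version given in the sources used here; the log2 scale was read from the values (1.95 to 15.11). Normalization holds array distributions nearly equal (medians 6.08 to 6.15), so the level of blood RNA is read relative to all other transcripts. No scanner files were used.

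Of 45101 probe sets, 64 were controls, 34945 had 1 gene symbol, 932 several and 9160 none used here; 34741 of the 34945 matched the RefSeq gene table by gene ID, with 0 symbols changed. The platform annotation named the genes. Each gene was represented by its brightest probe set (highest mean over the 6 arrays), genes with at least 4 on at least 3 arrays were tested (all 9 erythroid genes passed), and the other probe sets of the 9 genes come from the same fit on all probe sets. The fit used limma 3.58.1 in R 4.3.3 (lmFit, eBayes with intensity trend, genotype alone), with Benjamini-Hochberg adjustment over all genes and a threshold of 0.05; it was tested on simulated data. Exact permutation used SciPy 1.17.1. The number of arrays limits the precision.

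No arrays were identical: 2 arrays of one genotype differed with an SD over probe sets of 0.247 to 0.411. The labels number replicates 1 to 3 and do not state what equal numbers have in common. Deviations from genotype means correlated at 0.261, 0.13 and 0.135 for same-numbered arrays and at -0.195 to 0.0647 otherwise. On the data alone the numbers could mark a pairing. The main fit and the permutation test did not use it, and the replicate block was run as an alternative. Alternatives changed the normalization, filter, floor, trend, probe set rule, weights and block, or left out single arrays.

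The erythroid genes and all lists were chosen with earlier results of these data known. Text names come from a rule: all 9 genes, and from each list those past the threshold, the 4 smallest p-values or those without overlap, plus the 8 most like the erythroid level. Some genes that met it are not printed; which to print was chosen after values were seen. Coordinates are given for the printed promoters alone, in the build of the RefSeq table; no build is named for the array values.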

Additional observations from a re-analysis of the deposited data

Results flagged for a closer look

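A probe set annotated to the adult beta-globin genes Hbb-bt, Hbb-bs, Hbb-b2 and Hbb-b1 together entered no comparison, because it names several genes. It read 12.03, 12.07 and 13.26 on the arrays labelled Tbx1-/- and 11.93, 11.82 and 11.47 on those labelled Tbx1+/+. All arrays labelled Tbx1-/- lay above all those labelled Tbx1+/+, and the highest value, 13.26, was on replicate 3 labelled Tbx1-/-.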

How the results depend on the processing

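The count of erythroid genes past the threshold was 0 with all arrays and under each alternative tried: median centring, a further quantile normalization, no filter, values under 4 raised to 4, no trend, averaging of all probe sets of a gene, each probe set as its own test, array weights, the replicate block and each array left out. The lowest adjusted p among the alternatives was 0.665, for Car2. The difference stayed below 0 for 8 of the 9 genes in all 15 alternatives; Hbb-bh1 was below 0 in 14 and ranged from -0.24 to 0.01 with 1 array left out, 0.01 being the value without Tbx1-/- replicate 3. With array weights Alas2 differed by -0.23 and Slc4a1 by -0.32. Over all genes, those past the threshold numbered 0 with averaged probe sets, 2 lower and 0 higher with no filter, no trend or raised values, and 8 lower and 14 higher without Tbx1-/- replicate 3. The gap between Hbb-y and Hbb-bh1 changed by -0.01 to 0.10 with 1 array left out, and was -0.01 without Tbx1-/- replicate 3. With the replicate block, 1 yolk sac marker, Ttr, passed. Differences of other genes also turned sign. With 1 array left out, Hba-a2 ranged from -0.17 to 0.10 (0.05 without Tbx1-/- replicate 3, 0.10 without Tbx1+/+ replicate 1), and it was 0.09 with array weights. Gp1bb ranged from -0.11 to 0.19, Lyz2 from -0.06 to 0.69 and Ppbp from -0.06 to 0.58, each lowest without Tbx1-/- replicate 3, and Gp1bb was -0.03 with averaged probe sets. The sex-linked Xist ranged from -2.89 to 0.08 and Eif2s3y from 0.00 to 0.39, turning without Tbx1-/- replicate 2, and Uty from -0.26 to 0.38 (-0.07 without Tbx1-/- replicate 2, -0.26 without Tbx1+/+ replicate 3). The cause was not tested.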

Other observations

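Probe sets shared by the adult alpha-globin genes Hba-a1 and Hba-a2 read 12.28, 12.42 and 12.46 on the arrays labelled Tbx1-/- and 12.48, 12.44 and 12.48 on those labelled Tbx1+/+ for the first, and 12.19, 12.38 and 12.49 on the arrays labelled Tbx1-/- and 12.46, 12.30 and 12.44 on those labelled Tbx1+/+ for the next. The last read 12.57, 12.49 and 12.48 on the arrays labelled Tbx1-/- and 12.73, 12.58 and 12.58 on those labelled Tbx1+/+. Replicate 3 labelled Tbx1-/- was thus the highest of the 6 arrays on one of them, and the 3 differences lay between -0.12 and -0.05.

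A probe set shared by prolactin-family genes of the Prl2c cluster read 8.72, 8.86 and 14.50 on the arrays labelled Tbx1-/- and 8.12, 8.19 and 8.49 on those labelled Tbx1+/+.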
